A study of Mus musculus with 13 samples.

Results

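The second hour after serum was given back to resting myoblasts was set against the first, over all non-control probe sets of the array. The 2 arrays of the first hour were taken at 0.5 and 1.0 h and the 2 of the second hour at 1.5 and 2.0 h, which is 4 of the 13 arrays used here. The cells were C2C12, a mouse line of skeletal muscle precursors. All had been held for 24 h in medium with 0.2% fetal bovine serum (FBS), down from 5%, and the compared cells had then been put back into medium with FBS, at a strength the labels do not give; no other agent or genetic change is named. The study looked for oscillating genes. Parallel flasks were harvested at 0.5 h intervals, with 1 array per time point from 0 to 6.0 h and no replicates. Each hour therefore holds 2 time points of 1 cell line. Expression was measured on 45037 probe sets, which named 18193 genes.

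Serum returned to resting cells activates receptors for growth factors, and the signal passes through MAP kinases to transcription factors that are already present in the cell. The immediate-early genes, such as Fos and Egr1, answer first and need no new protein. Their transcripts are short-lived, and many of their products are transcription factors, RNA-binding proteins or phosphatases that control the next genes. Delayed-early genes follow, and with growth resumed the cell switches on ribosome production and amino acid supply and switches off programmes kept up by FoxO factors during starvation.

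Between the hours 427 of 18193 genes (2.35%) passed the threshold, a Benjamini-Hochberg adjusted p under 0.05 in limma: 217 were higher in the second hour (1.19%) and 210 were lower (1.15%). By probe set, 331 were higher (0.735%) and 304 lower (0.675%), and of the genes 25 rose and 21 fell by at least 1 on the log2 scale. The largest rise was that of Serpinb2, whose product inhibits plasminogen activators, and Fos, a subunit of the AP-1 transcription factor, fell most. The spread in this test is that between time points within a window, which holds real change in time as well as technical variation. With only the 4 arrays in the fit, limma called 0 genes, with 2277 at an unadjusted p under 0.05, and an exact permutation test of 2 arrays against 2 cannot go below p = 0.333 (two-sided). The calls also rested on the outer time points: without the 0.5 h array 10 genes were called higher and 29 lower, and without the 2.0 h array 9 and 21. Without the 1.0 h array the numbers were 388 and 314. Of the 54 called genes named by rule, 16 were called without the 0.5 h array, 17 without the 2.0 h array and 20 under quantile normalization. A fit that leaves 1 array in an hour takes its spread from the other windows only and assumes that the lone array varies like them, so it is no test between replicated groups.

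The 4 arrays were alike in their middle and unlike in their spread. Their median ratios lay between 0.99 and 1.0, while the SD of the log2 ratio over probe sets was 0.299, 0.262, 0.223 and 0.217 in order of time. With these spreads made equal by quantile normalization of the ratios, 65 genes were called higher and 44 lower. Of these calls 108 were among the 427. Control probe sets for Gapdh had ratios of 0.986 to 1.05 in the first hour and 1.009 to 1.039 in the second, and those for beta-actin 0.964 to 1.017 and 1.005 to 1.06. Values are ratios to a reference of each probe set, so there is no absolute level, and the myoblast label could not be checked by level. Of 11 measured myoblast markers 5 lay above 0 and 6 below (median -0.02), and only Pax7, a factor of muscle stem cells, was called. Pax7 stood at 1.17 and 0.928 times 0 h and then at 0.636 and 0.683 (lower by 0.66 ± 0.12 SE on the log2 scale, limma adjusted p = 0.00993). Its change was -0.49 without the 0.5 h array and -0.53 under quantile normalization, where it was not called. Among 24 genes of differentiated muscle limma called 0, with 3 at an unadjusted p under 0.05. Of the 24, 20 lay above 0, against 9449 of all 18193 genes. In 17 both second-hour arrays were above both first-hour arrays, against 23.3% of all genes. The mean ratio of the 24 was 1.03 at 0 h, 0.857 and 0.95 in the first hour and 0.979 and 1.01 in the second. The second-hour values were thus near that of the 0 h array, after lower values in the first hour. Of 7 fibroblast and 8 adipocyte and osteoblast markers limma called 0, with 0 and 2 at an unadjusted p under 0.05, and of 14 blood and endothelial markers only Cd68 (-0.42 ± 0.10), whose call was kept in 3 of the 12 fits with 1 array left out and lost under quantile normalization. The part of other cell types in the results was not tested.

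The promoters of 5 genes are shown. Fos, Fosb and Nr4a1 were among the 4 largest falls, Serpinb2 was the largest rise, and Chac1 rose most among amino acid response genes. In all 5 the first-hour mean had been at least 0.5 (log2) above 0 h, so called genes with other courses are not shown. Each sequence is the 250 bases before the start site in RefSeq (build GRCm38.p6), read 5′ to 3′ on the strand of the gene. Capitals mark matches, on either strand, to the core TGACG of the cyclic AMP response element (CRE), bound by CREB and ATF factors, to the AP-1 motif TGANTCA and to TATAAA. The Fos window is chr12:85473640-85473889 on the plus strand, that of Fosb chr7:19310046-19310295 on the minus strand, and that of Nr4a1 chr15:101266596-101266845 on the plus strand. The Serpinb2 window is chr1:107511173-107511422 and the Chac1 window chr2:119350992-119351241, both on the plus strand.
Fos: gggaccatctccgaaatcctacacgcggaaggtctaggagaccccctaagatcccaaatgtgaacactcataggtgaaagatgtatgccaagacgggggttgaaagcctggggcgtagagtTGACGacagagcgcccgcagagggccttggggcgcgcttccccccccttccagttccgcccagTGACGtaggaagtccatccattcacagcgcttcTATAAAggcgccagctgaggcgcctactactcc
Fosb: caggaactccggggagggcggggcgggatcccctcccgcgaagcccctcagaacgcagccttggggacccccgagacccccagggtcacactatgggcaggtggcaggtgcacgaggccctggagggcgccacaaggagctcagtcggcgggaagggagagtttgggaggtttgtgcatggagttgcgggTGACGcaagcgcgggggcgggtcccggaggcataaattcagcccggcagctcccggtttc
Nr4a1: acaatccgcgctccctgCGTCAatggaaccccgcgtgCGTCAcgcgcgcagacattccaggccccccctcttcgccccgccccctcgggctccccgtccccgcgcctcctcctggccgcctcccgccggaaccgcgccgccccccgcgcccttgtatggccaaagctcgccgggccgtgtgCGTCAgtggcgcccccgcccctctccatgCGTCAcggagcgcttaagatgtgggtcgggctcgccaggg
Serpinb2: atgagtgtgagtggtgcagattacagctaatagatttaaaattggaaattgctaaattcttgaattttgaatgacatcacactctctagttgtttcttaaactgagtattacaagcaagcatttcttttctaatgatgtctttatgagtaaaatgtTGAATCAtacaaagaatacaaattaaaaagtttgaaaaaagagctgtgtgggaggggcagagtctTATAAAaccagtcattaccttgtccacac
Chac1: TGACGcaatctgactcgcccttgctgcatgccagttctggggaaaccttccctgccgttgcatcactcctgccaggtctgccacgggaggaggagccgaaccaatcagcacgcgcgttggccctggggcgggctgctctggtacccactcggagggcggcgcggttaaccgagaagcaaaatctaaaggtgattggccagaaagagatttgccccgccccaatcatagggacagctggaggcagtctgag
The CRE core stood 129 and 66 bases upstream of the start of Fos, 60 bases upstream of Fosb and at 4 places before Nr4a1, and TATAAA 33 bases upstream of Fos. Serpinb2 had an AP-1 match 94 bases and TATAAA 29 bases upstream. Over the 14452 genes with a promoter entry, 23.2% of the windows held the core, against 34.1% (57 of 167) of genes called higher and 26.7% (44 of 165) of genes called lower. Among the genes called lower that had been at least 0.5 (log2) above 0 h in the first hour, 11 of 27 windows (40.7%) held it. AP-1 matches were in 5.58% of all windows, 7.78% of those called higher and 5.45% of those called lower. The CArG box, the site of serum response factor (SRF), was in 1.21% of all windows and in 2 of these 27 (7.41%). Matches are letters in a window and do not show binding. Sites more than 250 bases upstream were not looked for, and Egr1 had no promoter entry.

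The 210 falls were of different kinds. In 30 genes the first-hour mean had been at least 0.5 above the 0 h array on the log2 scale. In these the median was 1.28 above 0 h in the first hour and 0.52 in the second, and 0.16 at 2.5 to 4.0 h. The largest group, 176 genes, had a first-hour mean within 0.5 of 0 h (median -0.03) and a second-hour median of -0.57. At 2.5 to 4.0 h 171 of these 176 were below 0 h, against 9989 of the 17766 genes not called. The other 4 were already at least 0.5 below. The rises were split in a similar way, with 24 genes already at least 0.5 above 0 h (median 0.72, then 1.55), 189 within 0.5 of it (0.06, then 0.64) and 4 below. At 2.5 to 4.0 h, 186 of the 189 were above 0 h, against 7777 of the 17766 genes not called. The values over 0 h rest on the single 0 h array and share arrays with the comparison, so they are given without a test. The 2.5 to 4.0 h arrays also entered the fit that made the calls.

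**Figure D1:**
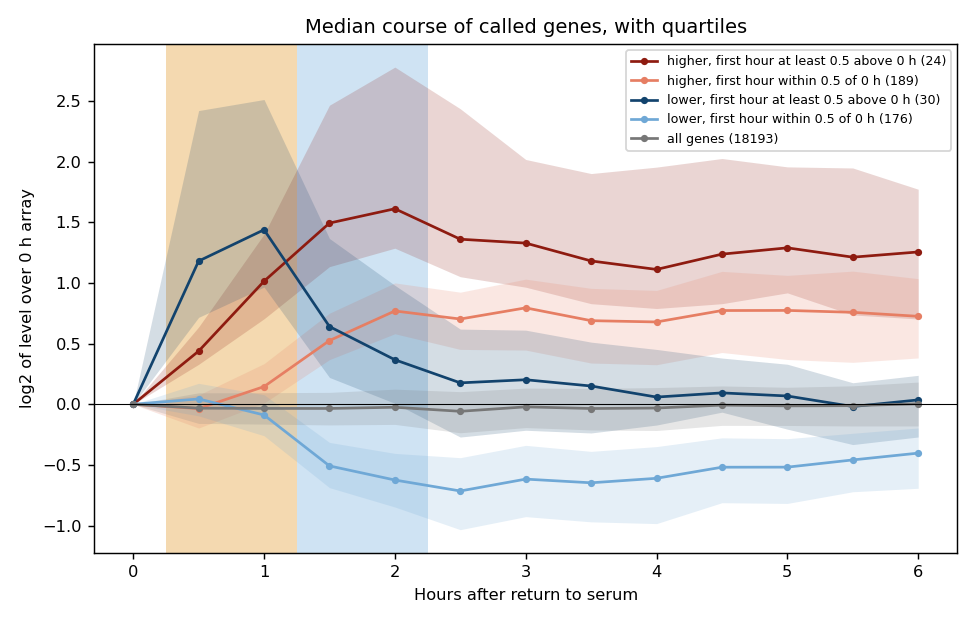
Median log2 level over the 0 h array (lines) and quartiles (shading) against hours after the return to serum for genes called higher (red) or lower (blue), split by the first-hour mean, with all 18193 genes in grey. The 30 genes that were lower after a first-hour rise had returned to a median of 0.16 at 2.5 to 4.0 h, while the 176 that had not risen stayed at -0.64.

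The list of immediate-early transcription factors had 22 measured genes and also holds Arc, which is not such a factor. Among the 22, 10 fell and 0 rose, against 1.15% and 1.19% of all genes. The list's median change was -0.44, against 0.01 over all genes, and 19 members lay below 0. Fos stood at 16.6 and 6.99 times its 0 h level at 0.5 and 1.0 h and at 1.47 and 0.876 times at 1.5 and 2.0 h. Both second-hour arrays were far below both of the first, by 3.25 ± 0.30 on the log2 scale (SE; limma adjusted p = 2.14e-04), a 9.50-fold fall. Fosb, a second AP-1 subunit, was at 11.1, 9.25, 2.94 and 2.05 times 0 h (fell by 2.04 ± 0.18). At 2.0 h Fosb was still above its start and Fos was below it. The third subunit, Jun, was at 1.60, 1.29, 0.69 and 0.712 times 0 h (fell by 1.04 ± 0.10). Junb, whose product shares partners with Jun, was not called (0.08).

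The zinc finger factors Egr1 and Egr2 differed in height. Egr1 was at 2.77 and 1.80 times 0 h and then at 1.00 and 0.624 (fell by 1.50 ± 0.20, limma adjusted p = 0.00231). Egr2 was at 11.98, 13.5, 5.31 and 3.68 times 0 h (fell by 1.52 ± 0.22), so its highest array was 1.0 h and it was still raised at 2.0 h. Egr3 (-0.45) and Egr4 (-0.01) were not called.

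Nr4a1, an orphan nuclear receptor, had the same level on both first-hour arrays and lost it in the second hour. It was at 26.0 and 25.9 times 0 h and then at 12.3 and 5.24 (fell by 1.69 ± 0.27, limma adjusted p = 0.00539). Under quantile normalization this gene, ranked 1 to 3 from the top of 45037 probe sets on the 4 arrays, changed by 0.012, and leaving out the 0.5 h array also ended its call. Its relatives Nr4a2 (-0.32) and Nr4a3 (-0.01) were not called. Atf3, a repressor of the CREB and ATF family, was at 8.91, 7.94, 4.48 and 2.13 times 0 h (fell by 1.44 ± 0.23), and Ier2 was at 5.04, 3.83, 2.49 and 1.75. Klf2 (-0.49 ± 0.10) and Klf6 (-0.72 ± 0.11), Kruppel-like factors, completed the 10. The list kept 6 calls without the 0.5 h array, 7 without the 2.0 h array and 2 under quantile normalization.

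Of 12 measured mRNA decay and antiproliferative regulators 1 rose and 4 fell (median -0.18), against 1.19% and 1.15% of all genes. Zfp36, which binds AU-rich elements and brings about mRNA decay, was at 7.68 and 6.18 times 0 h and then at 3.30 and 2.10 (fell by 1.39 ± 0.20, limma adjusted p = 0.00293). Btg2, an antiproliferative protein that promotes deadenylation, was at 5.46, 3.66, 2.16 and 1.26 (fell by 1.44 ± 0.22). In both genes the second-hour arrays lay below the first-hour arrays. Ier3, a survival gene, fell by 0.96 ± 0.17 but was still at 3.12 times 0 h at 2.0 h. Zfp36l1 fell by 0.67 ± 0.12 and ended under its start at 0.697 times 0 h, while its relative Zfp36l2 rose by 0.65 ± 0.14 to 1.79 times 0 h. The decay regulators Tob1 (0.01), Tob2 (0.07), Noct (0.27) and Zc3h12a (-0.11) were not called.

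Of 16 measured feedback regulators of the MAP kinases and FGF signalling 1 rose and 2 fell (median 0.01), against 1.19% and 1.15% of all genes. Dusp1, a nuclear phosphatase that switches off MAP kinases, was at 3.37 and 1.87 times 0 h and then at 0.929 and 0.754 (fell by 1.58 ± 0.19, limma adjusted p = 0.00136). Dusp4, a phosphatase of the same family, took the opposite course with 1.41, 2.46, 3.81 and 4.69 times 0 h (rose by 1.18 ± 0.24, limma adjusted p = 0.0169). Dusp10, which acts on p38 and JNK, was above 0 h only at 0.5 h (1.37) and stood at 0.811, 0.519 and 0.602 afterwards (fell by 0.91 ± 0.18). The Sprouty genes Spry1 (-0.11), Spry2 (0.0005) and Spry4 (0.61) and the phosphatases Dusp5 (0.57) and Dusp6 (0.29) were not called.

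Kruppel-like factors were split as well, with 2 rises and 4 falls among 12, against 1.19% and 1.15% of all genes. Klf11, a target and partner of TGF-beta signalling, was at 1.07, 0.895, 0.506 and 0.473 times 0 h (fell by 1.00 ± 0.10, limma adjusted p = 2.89e-04), and Klf7 was at 1.60, 2.48, 1.35 and 1.16. Klf16 rose by 0.77 ± 0.14 and Klf9 by 0.47 ± 0.08. Klf10, at 0.519, 3.25, 4.79 and 2.85 times 0 h, had the largest step of all genes between 0.5 and 1.0 h (2.65). Its hours overlapped, and it was not called (1.51 ± 0.59, limma adjusted p = 0.274).

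**Figure D2:**
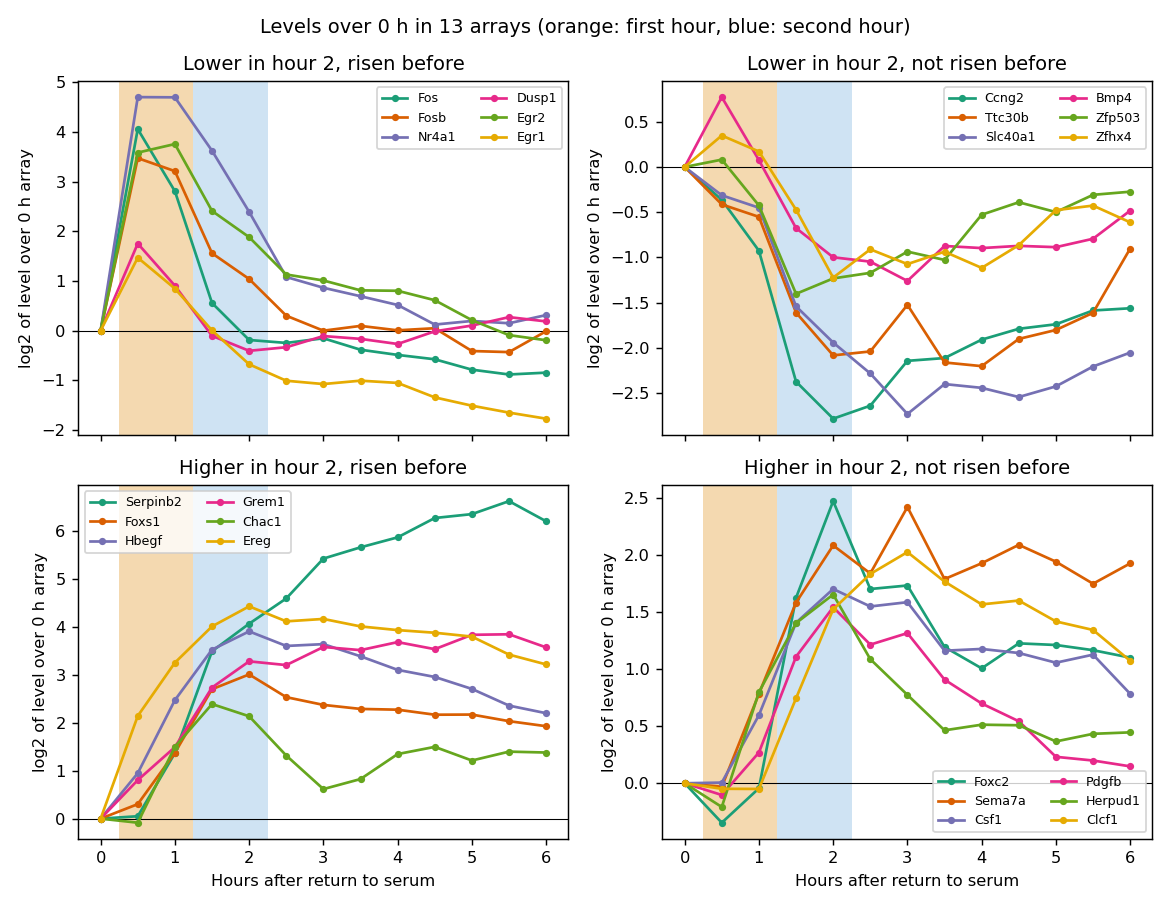
Log2 level over the 0 h array against hours after the return to serum for the 6 largest changes in each of 4 sets of called genes, with the first hour in orange and the second in blue. Fos falls from 16.6 to 0.876 times 0 h within the compared arrays, Ccng2 sinks to 0.145 times, and Serpinb2 climbs from 1.04 to 16.7 times.

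Delayed-early genes rose where they were called. Of 22 measured members 4 rose and 0 fell (median 0.32), against 1.19% and 1.15% of all genes, and 19 lay above 0. Serpinb2 was at 1.04 and 2.57 times 0 h in the first hour and at 11.2 and 16.7 times in the second (rose by 3.07 ± 0.39 on the log2 scale, limma adjusted p = 0.00161). It went on to 73.2 times 0 h at 6.0 h. Its ratio was the lowest of all 45037 probe sets on each of the 4 arrays, so quantile normalization, which assigns values by rank, gave it a change of 0. Fosl1, an AP-1 subunit of the delayed response, was at 2.25, 4.76, 7.57 and 8.30 times 0 h (rose by 1.28 ± 0.25, limma adjusted p = 0.0165). The urokinase receptor gene Plaur (0.61 ± 0.13) and the metalloproteinase inhibitor gene Timp1 (0.71 ± 0.11) rose too, to 1.95 and 1.66 times 0 h at 2.0 h.

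Ptgs2, the inducible cyclooxygenase, had reached its level by the first hour. It was at 17.0 and 25.7 times 0 h and then at 23.0 and 26.1, so the hours overlapped (0.23 ± 0.33, limma adjusted p = 0.884). Of 10 measured prostaglandin genes limma called 0, with 1 at an unadjusted p under 0.05. Myc (0.36), Odc1 (0.31), Plau (0.38) and Ccnd1 (0.33) were not called either.

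Secreted factors were among the largest rises. Hbegf, a ligand of the EGF receptor, was at 1.93, 5.53, 11.5 and 14.9 times 0 h (rose by 2.00 ± 0.36, limma adjusted p = 0.00992). Ereg, a second ligand of that receptor, was at 4.40, 9.50, 16.0 and 21.4 times (rose by 1.52 ± 0.28). Both transcripts were higher on each later array of the 4, and both calls were lost without the 0.5 h or the 2.0 h array. The other measured ligands, Btc, Tgfa, Epgn and Nrg1, lay between -0.10 and 0.22 and were not called.

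In the list of TGF-beta and bone morphogenetic protein (BMP) targets 4 of 20 genes rose and 1 fell (median 0.21), against 1.19% and 1.15% of all genes. Grem1, a secreted BMP antagonist, was at 1.74 and 2.81 times 0 h and then at 6.64 and 9.69 (rose by 1.86 ± 0.21, limma adjusted p = 8.34e-04). Nog, another antagonist, was at 0.868, 0.921, 1.46 and 1.58 times (rose by 0.77 ± 0.17), with the call lost without any 1 of the 4 compared arrays and under quantile normalization. Bmp4 itself was at 1.71 and 1.05 times 0 h and then at 0.626 and 0.50 (fell by 1.26 ± 0.20, limma adjusted p = 0.00539). Id2, an inhibitor of myogenic helix-loop-helix factors, rose by 0.70 ± 0.15 and Inhba, a subunit of activin, by 0.58 ± 0.11. The BMP and TGF-beta inhibitors Bambi (0.10), Smad6 (-0.01) and Smad7 (-0.14) were not called. Id1 was at 2.92 times 0 h at 0.5 h and 9.52 times at 1.0 h and was not called (0.67 ± 0.42).

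Among 18 NF-kappaB targets and cytokines 2 rose and 1 fell, against 1.19% and 1.15% of all genes. Csf1, the macrophage growth factor, was at 1.00, 1.51, 2.65 and 3.25 times 0 h (rose by 1.25 ± 0.19, limma adjusted p = 0.00458), and Nfkbie, an inhibitor of NF-kappaB, rose by 0.49 ± 0.10. The chemokine Cxcl1 had its highest array at 1.0 h, with 2.18, 4.33, 1.85 and 1.13 times 0 h (fell by 1.09 ± 0.25). Ccl2, a chemokine for monocytes, was at 1.36, 4.21, 5.82 and 5.18 times and was not called (1.20 ± 0.36, limma adjusted p = 0.113).

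Several of the largest rises were outside these groups. Foxc2, a forkhead factor of paraxial mesoderm and its derivatives, was at 0.787 and 0.97 times 0 h and then at 3.08 and 5.54 (rose by 2.24 ± 0.25, limma adjusted p = 6.06e-04). The related forkhead gene Foxs1 was at 1.23, 2.59, 6.48 and 8.02 times (rose by 2.01 ± 0.23). Foxc2 was thus flat in the first hour, whereas Foxs1 was already up at 1.0 h. Ch25h, cholesterol 25-hydroxylase, reached 6.51 times 0 h at 2.0 h (rose by 1.46 ± 0.35, limma adjusted p = 0.042). Sema7a, a membrane-bound semaphorin, reached 4.24 times (1.46 ± 0.24) and Nuak2, a kinase related to AMPK, 4.73 times at 1.5 h (1.44 ± 0.29). The call of Ch25h was lost on leaving out any 1 of 6 arrays, and those of Sema7a and Nuak2 without the 0.5 h or the 2.0 h array, that of Nuak2 also without the 1.5 h array.

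**Figure D3:**
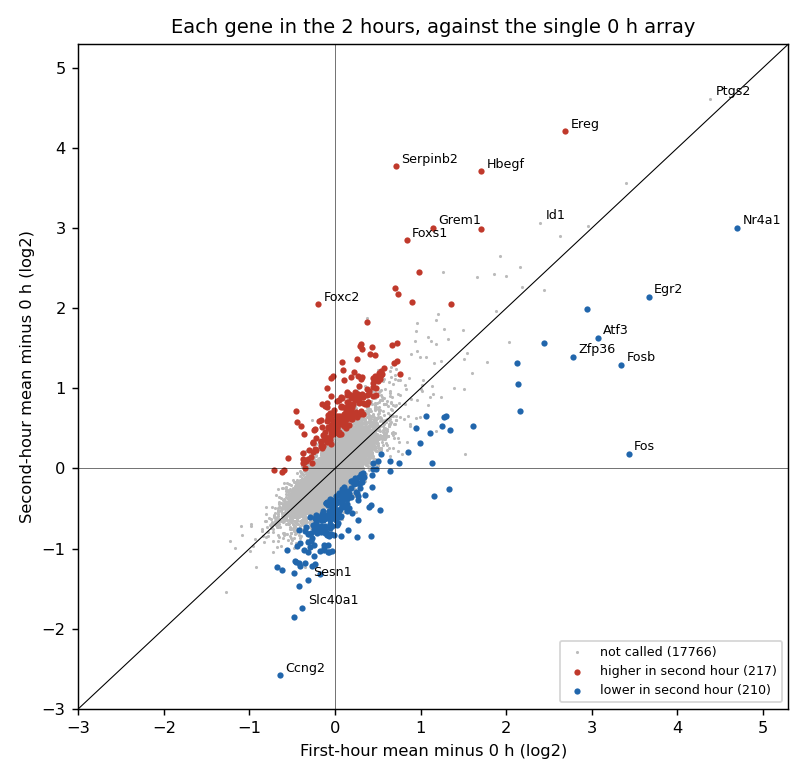
First-hour mean (x axis) against second-hour mean (y axis) of each gene, both as log2 differences from the single 0 h array, with 217 genes called higher in red, 210 called lower in blue and the rest in grey; the line marks equal means. Fos lies far right and near 0 on the y axis, Ptgs2 lies near the line, and Ccng2 is at the bottom.

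Of 20 measured targets of FoxO factors and genes of quiescence 8 fell and 0 rose (median -0.38), against 1.15% and 1.19% of all genes. In 13 both second-hour arrays were below both of the first, against 20.6% of all genes. Ccng2, an atypical cyclin found in resting cells, was at 0.777 and 0.526 times 0 h and then at 0.193 and 0.145 (fell by 1.93 ± 0.21, limma adjusted p = 6.06e-04). On the 1.0 h array it was the lowest of the 8 against 0 h, followed by Pik3ip1, an inhibitor of PI3 kinase, which was at 0.681, 0.618, 0.446 and 0.386. Sesn1, which restrains mTORC1, was at 0.827, 0.778, 0.447 and 0.324 times (fell by 1.08 ± 0.15), though its 4 probe sets ranged from -1.70 to 0.12. The remaining falls were Bcl6, a repressor (-0.68), Fbxo32, the muscle ubiquitin ligase atrogin-1 (-0.67), Cdkn1b, the cyclin-dependent kinase inhibitor p27 (-0.59), Foxo3 itself (-0.53) and Mxi1, an antagonist of Myc (-0.39). Foxo1 (0.05), Foxo4 (0.10) and Txnip (-0.27) were not called. The list had 2 calls without the 0.5 h array, 5 without the 1.5 h array, 3 without the 2.0 h array and 1 under quantile normalization.

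Further falls came from outside the list. Slc40a1, the iron exporter ferroportin, was at 0.805 and 0.732 times 0 h and then at 0.343 and 0.26 (fell by 1.36 ± 0.17, limma adjusted p = 0.00137). Ttc30b, a component of intraflagellar transport, was at 0.751, 0.682, 0.327 and 0.236 (fell by 1.36 ± 0.28), with the call lost without the 0.5 h or the 2.0 h array. Of 13 p53 and stress genes 1 rose and 3 fell, against 1.19% and 1.15% of all genes. Trp53inp1, a p53-induced gene that was at 0.507 and 0.485 times 0 h in the second hour, fell by 0.88 ± 0.10. Sesn1 and the kinase gene Plk2 (-0.40) fell as well. Of 18 clock genes Dbp, an output gene of the clock, fell by 0.63 ± 0.12.

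Of 25 measured genes of ribosome production 8 rose and 0 fell (median 0.40), against 1.19% and 1.15% of all genes. Of the 25, 24 lay above 0, and in 22 both second-hour arrays were above both of the first, against 23.3% of all genes. Rrs1, a regulator of ribosome synthesis, was at 0.924 and 1.26 times 0 h and then at 1.88 and 2.44 (rose by 0.99 ± 0.13, limma adjusted p = 0.0021). Tsr1, needed for the small subunit, was at 0.981, 1.54, 2.01 and 2.37, and Gnl3, the nucleolar GTPase nucleostemin, at 0.869, 1.22, 1.57 and 2.09. The others were Rrp12 (0.70), Wdr43 (0.69), Nop2 (0.66), Nop56 (0.60) and Pes1 (0.40), all nucleolar proteins. The nucleolar proteins Npm1 (0.07), Ncl (0.24) and Fbl (0.29) were not called. The list had 1 call without the 0.5 h array, 12 without the 1.0 h array, 1 without the 2.0 h array and 4 under quantile normalization.

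Targets of ATF4 and of amino acid supply had the highest median of the lists. Of 19 measured genes 8 rose and 0 fell (median 0.57), against 1.19% and 1.15% of all genes. All 19 lay above 0. In 17 both second-hour arrays were above both of the first, against 23.3% of all genes. Chac1, an enzyme that breaks down glutathione, was at 0.943, 2.82, 5.23 and 4.38 times 0 h (rose by 1.55 ± 0.35, limma adjusted p = 0.0327). Trib3, a pseudokinase, was flat in the first hour (0.947 and 0.927) and at 1.62 and 2.50 times in the second (rose by 1.10 ± 0.19). Enzymes of amino acid and folate metabolism and transporters were among the rest: Mthfd2 (0.96), Asns, asparagine synthetase (0.79), Slc7a1, a transporter of cationic amino acids (0.89), and Slc3a2, the common heavy chain of several amino acid transporters (0.68). Sesn2 rose by 0.69 ± 0.16, while its relative Sesn1 fell, and Nupr1 rose by 0.57 ± 0.12 from a first hour below 0 h (0.601 and 0.732). Atf4 itself (0.08) and Atf5 (0.08) were not called. The 8 calls became 0 without the 0.5 h array and 0 without the 2.0 h array, and 4 under quantile normalization.

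Of 18 measured chaperones and stress genes of the endoplasmic reticulum (ER) 3 rose and 0 fell (median 0.26), against 1.19% and 1.15% of all genes. All 18 lay above 0. In 15 both second-hour arrays were above both of the first, against 23.3% of all genes. Herpud1, which takes part in ER-associated degradation, was at 0.866, 1.74, 2.64 and 3.15 times 0 h (rose by 1.23 ± 0.24, limma adjusted p = 0.0167). Creld2 (0.71) and Manf (0.46), secreted proteins of the ER stress response, also rose, and the chaperone BiP, encoded by Hspa5, was not called (0.34). Without the 0.5 h or the 2.0 h array 0 of the list were called, and 0 under quantile normalization. Of 13 heat shock chaperones limma called 0, with 1 at an unadjusted p under 0.05 (median 0.06). Among 15 genes of hypoxia and glycolysis, Hk2, a hexokinase, rose by 0.95 ± 0.14 from 0.843 and 1.11 times 0 h to 1.67 and 2.09, and no other was called.

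**Figure D4:**
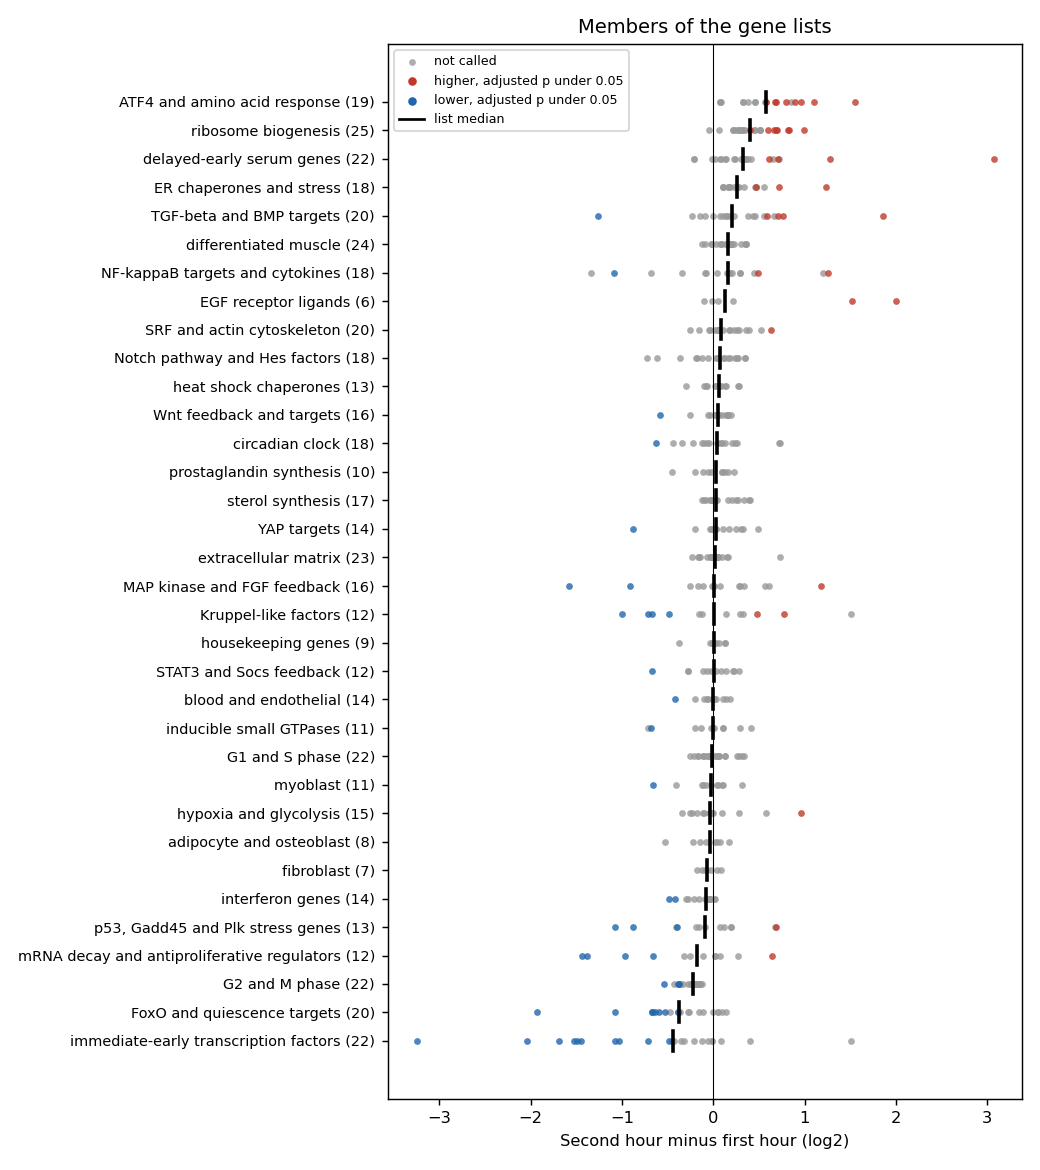
Second-hour minus first-hour change (log2, x axis) of each measured member of 34 gene and marker lists, with the number measured in brackets, called genes in red or blue and a black bar at the list median. The medians run from -0.44 for immediate-early transcription factors to 0.57 for the amino acid response.

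Of 22 measured genes of G2 and mitosis 3 fell and 0 rose (median -0.22), against 1.15% and 1.19% of all genes. All 22 had both second-hour arrays below both of the first, against 20.6% of all genes. Plk1, a mitotic kinase, was at 1.26 and 1.12 times 0 h and then at 0.821 and 0.815 (fell by 0.54 ± 0.09, limma adjusted p = 0.00664). Ccna2, cyclin A2, fell by 0.38 ± 0.08 and Nusap1, a spindle protein, by 0.38 ± 0.09, and the 19 not called lay between -0.44 and -0.13. Since their hours did not overlap, leaving out an array could not change these signs and is no check of them. Under quantile normalization all 22 were below 0, with a median of -0.13, and 0 were called. Of 22 G1 and S phase genes limma called 0, with 4 at an unadjusted p under 0.05 (median -0.01). Cyclin D1 (Ccnd1) was at 0.33 and cyclin E1 (Ccne1) at -0.21.

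Genes of SRF and the actin cytoskeleton were mostly not called. Of 20 measured genes 1 rose and 0 fell (median 0.08), against 1.19% and 1.15% of all genes. Tagln, an actin-binding protein, was at 1.26, 1.63, 2.08 and 2.37 times 0 h (rose by 0.64 ± 0.14, limma adjusted p = 0.0272). Srf was not called (0.53), nor were the beta and gamma actin genes Actb (0.06) and Actg1 (0.05). Of 14 YAP targets F3, tissue factor, fell by 0.88 ± 0.21 from 4.88 and 6.10 times 0 h to 3.92 and 2.26. This call was kept in 2 of the 12 fits with 1 array left out and was lost under quantile normalization and with a variance trend. Ccn1 (0.10) and Ccn2 (0.17), the best known of these targets, were not called. Of 11 inducible GTPases Rnd3 fell by 0.69 ± 0.13.

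Of 18 genes of the Notch pathway limma called 0, with 6 at an unadjusted p under 0.05 (median 0.08). Hes1, the Notch target whose transcript is known to oscillate, was at 1.16, 2.58, 1.69 and 0.755 times 0 h, highest at 1.0 h and lowest at 2.0 h. Its hours overlapped (-0.61 ± 0.33, limma adjusted p = 0.484), and the step from 1.5 to 2.0 h was -1.16. That step was among the 4 largest between these arrays, with Nr4a1 (-1.23), Atf3 (-1.07) and the phosphatase Dusp2 (-0.92), which was at 3.62 and then 1.91 times 0 h. Among 16 Wnt genes Dkk2, a Wnt antagonist, fell by 0.58 ± 0.11. Among 12 STAT3 and Socs genes only Bcl6 fell, and among 14 interferon genes Irf1 (-0.42) and Irf9 (-0.48) fell, against 1.15% of all genes. Of 17 sterol synthesis genes, 23 of extracellular matrix and 9 housekeeping genes limma called 0, with 0, 1 and 1 at an unadjusted p under 0.05 (medians 0.03, 0.02 and 0.005).

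Steps between neighbouring arrays became smaller across the 4 arrays. Between 0.5 and 1.0 h 287 genes moved by at least 0.5 on the log2 scale, between 1.0 and 1.5 h 191, and between 1.5 and 2.0 h 83. The steps of at least 1 were 13 up and 10 down, then 6 up and 11 down, then 0 up and 3 down. The spread of the ratios over all probe sets fell over the same times, as given above, and its part in this was not tested. The largest steps within the first hour were those of Klf10 (2.65), Id1 (1.70), Ccl2 (1.63) and Chac1 (1.58), all upward.

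With each of the 12 arrays other than 0 h left out in turn, 25 genes were called every time. The hours of all 427 called genes did not overlap, so leaving out an array could not change a sign. The sign was opposite in 2 of the 427 with plain probe sets only and in 1 under quantile normalization. The 9 that were higher were Serpinb2, Foxc2, Foxs1, Grem1, Hmga2, Phf23, Rrs1, Sh3bp2 and Snai1. The 16 that were lower were Fos, Fosb, Jun, Egr1, Dusp1, Klf6, Klf11, Ccng2, Sesn1, Trp53inp1, Slc40a1, Il15, Filip1l, Etfbkmt, Mapk1ip1 and Sertad4. Of the immediate-early list they hold Fos, Fosb, Jun, Egr1 and Klf6, and of the ribosome list Rrs1. Under quantile normalization 18 of the 25 were called and 7 were not: Serpinb2, Fosb (-0.66), Egr1 (-0.66), Klf6 (-0.40), Sesn1 (-0.61), Slc40a1 (-0.71) and Filip1l (-0.54). Fos was called there with a change of -1.42, in place of -3.25.

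**Figure D5:**
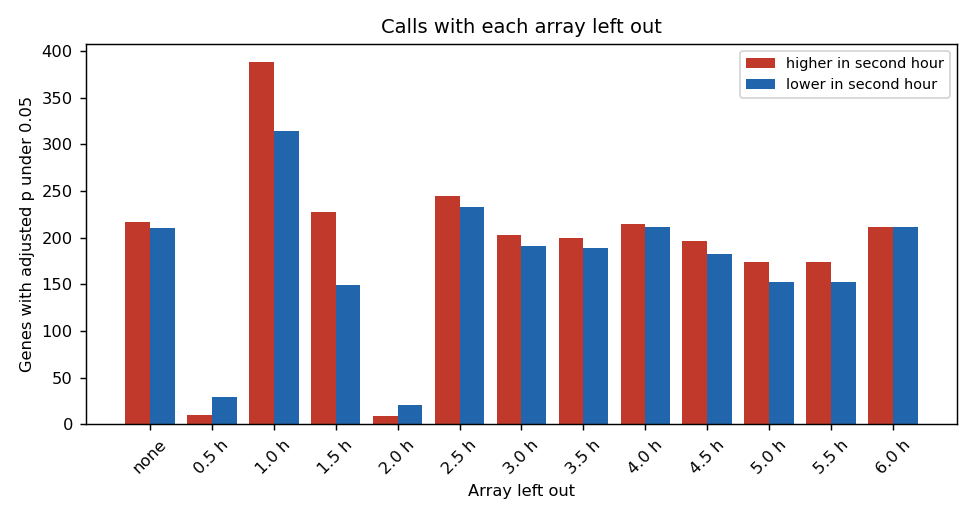
Number of genes with an adjusted p under 0.05 (y axis) higher (red) or lower (blue) in the second hour, with no array left out and with each array from 0.5 to 6.0 h left out. The counts drop to 10 and 29 without the 0.5 h array and to 9 and 21 without the 2.0 h array, and rise to 388 and 314 without the 1.0 h array.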

How the data were processed

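Biotin-labelled RNA of C2C12 cells from 13 time points was measured on 1 Affymetrix array each, per the labels. The authors deposited linear ratios to a reference of each probe set; RMA was used, per the submitters' processing notes, with no version stated, and the sources used here do not say how the ratios were formed. The reference cancels in a difference of log2 ratios between arrays. It does not cancel under quantile normalization, which was done on the ratios and goes by their rank. Scan dates were not given, so no batch could be tested.

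Of 45101 probe sets, 64 array controls were left out. Of the other 45037, 34945 had 1 gene symbol in the platform annotation, 932 several and 9160 none. Each gene was given the mean of log2 ratios over the probe sets that name no other gene (18193 genes, 9010 with several). All 13 arrays entered 1 fit of 5 window means (0 h; 0.5 and 1.0 h; 1.5 and 2.0 h; 2.5 to 4.0 h; 4.5 to 6.0 h) by two-sided moderated tests of limma 3.58.1 under R 4.3.3 (functions lmFit and eBayes), with 8 residual degrees of freedom and a median residual SD of 0.0981, and p-values were adjusted by Benjamini-Hochberg over all genes. The number of arrays limits the precision. Tables were made in Python 3.11.15 with numpy 2.4.6 and pandas 2.3.3, figures with matplotlib 3.10.9. The fit was run on simulated data of independent normal noise, with known shifts added to the second-hour arrays. These data held no trend within a window and no shared array effect, so they do not check the calls for either.

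The members and lists were chosen with earlier results of these data known. Named genes were the 12 largest rises and falls past the threshold, up to 3 members of each of 29 gene and 5 marker lists with the largest change, and the 4 largest steps within each hour. Other list members, and genes called in every fit with an array left out, were named after their values were seen. Alternatives were centring, quantile normalization, fewer arrays, each array left out, other summaries of probe sets, a variance trend with robust prior, a log2 change of 1 and a filter on flat rows.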

Additional observations from a re-analysis of the deposited data

How the results depend on the processing

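Of the counts of genes called higher (217) and lower (210), limma gave 0 and 0 with only the 4 arrays, 1 and 9 with 1.5 h against 1.0 h only, 65 and 44 under quantile normalization, and 25 and 21 with a log2 change of at least 1 also asked for. With 2.0 h against 0.5 h only, where each side is 1 array and the spread comes from the other windows, 364 genes were higher. Leaving out 1 array gave 9 to 388 genes higher and 21 to 314 lower. The probe set counts (331 and 304) became 0 and 0, 1 and 5, 87 and 55, and 70 and 52 under the same 4 alternatives, 595 higher with 2.0 h against 0.5 h only, and 17 to 698 higher and 31 to 561 lower with 1 array left out. Counts stayed within 1.5 times under centring, the median over probe sets, plain probe sets only, no 2.5 to 4.0 h arrays, a variance trend with robust prior and the filter on flat rows. Quantile normalization, done here on the ratios, equalises array spread and flattens genes at the ends of the ranking. A left-out outer array leaves the nearer time points. The part of these or of other causes in the changed counts was not tested. Of the named genes, Nr4a1 turned to 0.012 under quantile normalization. Among genes not called, with 1.5 h against 1.0 h only Ptgs2 turned to -0.16, Myh8 to -0.017 and Pparg to -0.19; without the 0.5 h array Ptgs2 turned to -0.071, Id1 to -0.19 and Dusp2 to -0.025; without the 1.5 h array Dusp2 turned to -0.13 and Col6a3 to 0.017; without the 2.0 h array Pparg turned to -0.15. With 1 array left out the ranges were -0.071 to 0.53 for Ptgs2, -0.199 to 0.017 for Col6a3, -0.15 to 0.48 for Pparg and -0.13 to 0.79 for Dusp2. No paired analysis was possible because no replicate is numbered in the labels and each time point has 1 array. The ratios hold no intensity, so dim probe sets could not be filtered.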

Other observations

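Growth factors and developmental regulators outside the lists were also among the called genes; these were picked after their values were seen. Pdgfa and Pdgfb, which encode chains of platelet-derived growth factor, stood at 1.05 and 1.09 and at 0.931 and 1.21 times 0 h in the first hour, and at 1.98 and 2.78 and at 2.16 and 2.91 times in the second (rises of 1.13 ± 0.20 and 1.24 ± 0.20 on the log2 scale). Clcf1, a cytokine of the interleukin-6 family, was flat at 0.967 and 0.966 times and then at 1.68 and 2.88. The homeobox gene Dlx3 (1.18), Hmga2, which encodes a chromatin protein of growing and embryonic cells (1.18), Sox11 (1.09), Snai1, a repressor of epithelial genes (0.98), and the kinase gene Map2k3 (1.10) rose. The zinc finger genes Zfp503 (-1.15) and Zfhx4 (-1.11), the apoptosis inhibitor gene Birc2 (-0.96), the AMP deaminase gene Ampd3 (-0.96) and the cytokine gene Il15 (-0.87) fell. Sgk1, a serum-induced kinase, was at 4.10, 4.65, 2.61 and 2.39 times 0 h and fell by 0.81 ± 0.12. Il15 held 1.31 and 1.33 times 0 h in the first hour and 0.726 and 0.713 times in the second, so almost all of its change lay between 1.0 and 1.5 h (-0.87).

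By the start of the symbol, of 336 genes whose symbols start with Zfp 4 rose and 14 fell (4.17% lower, median -0.02), and of 15 whose symbols start with Timm, subunits of the mitochondrial import machinery and relatives, 3 rose and 0 fell, against 1.19% higher and 1.15% lower over all genes. Of 347 starting with Slc 7 rose and 3 fell, and of 37 starting with Kif 0 were called. These groupings were picked after the values were seen and have no test.

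Of 10092 probe sets with no gene symbol or with several, 20 were higher and 24 lower. Calls were thus rarer here than among all probe sets, where 0.735% were higher and 0.675% lower. The largest rise among them was probe set 1421134_at, at 1.97, 3.82, 7.92 and 10.4 times 0 h (1.73 ± 0.25), and the largest fall was probe set 1422818_at, at 1.30, 1.31, 0.628 and 0.434 times (-1.32 ± 0.14).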
